A study of Mus musculus with 6 samples.

Results

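The genes described here are the ligands and receptors of the tumour necrosis factor (TNF) superfamily, with *Relt* among the receptors, and the TRAF adaptor proteins, in islets of mice with and without the farnesoid X receptor (FXR). A gene was a member when its symbol in the gene count table began with Tnfrsf or Tnfsf, or was one of the older names used for the same family (*Tnf*, *Lta*, *Ltb*, *Ltbr*, *Fas*, *Fasl*, *Cd40*, *Cd40lg*, *Cd27*, *Cd70*, *Eda*, *Edar*, *Eda2r*, *Relt*) or *Traf1* to *Traf6*. This gave 51 of the 19342 genes in the table, of which 18 encode ligands, 27 receptors and 6 adaptors. The rule reads only symbols, but *Relt* was named in it because earlier results of these data had chosen it. The compared islets came from FXR+/+ (wild-type) and FXR-/- (FXR knockout) mice aged 3 months, with 1 female and 2 male libraries for each genotype. The knockout mice are on a C57Bl/6 background, and neither the deleted exons nor a restriction to any tissue is described. The islets were collected after collagenase digestion of the pancreas, and whether 1 library holds the islets of 1 mouse or of several is not stated. In each genotype the labels name a female 1, a male 1 and a male 2, and libraries with the same number deviated together from the means of their genotypes.

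TNF superfamily ligands are mostly membrane proteins that bind as trimers to receptors on the same or on neighbouring cells. Receptors with a death domain, such as *Tnfrsf1a*, *Fas* and *Tnfrsf10b*, can recruit the machinery of apoptosis, while the other signalling receptors bind TRAF proteins and pass the signal to NF-κB and to stress kinases. Decoy receptors bind a ligand without passing on a signal. In islets, TNF is one of the inflammatory cytokines that damage β-cells in culture. *Relt* encodes RELT (TNFRSF19L), a receptor without a death domain that is known mainly from haematopoietic tissue.

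Counts on genes ran from 20629306 to 30139235 per library, of which the members together took 0.0336% to 0.0390%. A count of 3, taken as the floor of detection for counting error, was worth 0.0947 to 0.158 CPM (counts scaled to a common library size after TMM normalization). *Nr1h4*, the gene for FXR, stood at 14.2, 13.6 and 12.2 CPM in FXR+/+ female 1, male 1 and male 2 and at 5.67, 7.63 and 5.81 CPM in the FXR-/- libraries in the same order. The log2 fold change of FXR-/- over FXR+/+ was -1.07 ± 0.16 (SE, n = 3 per genotype), with an adjusted p of 0.217 by edgeR's quasi-likelihood test with Benjamini-Hochberg adjustment, 0.0441 with the replicate number as a block and 7.89e-05 by DESeq2. The 3 FXR-/- libraries were all below the 3 FXR+/+ libraries, so that no library goes against its label. With the exon counts summed per gene the log2 fold change was -1.78. Islet hormone genes were abundant, with *Ins1* and *Ins2* together at 17.5% to 23.9% of counts. The libraries also held RNA of other pancreatic cells, and the summed CPM of 8 acinar markers ran from 32810 to 101600 in FXR+/+ and from 47330 to 115000 in FXR-/- libraries.

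The family was represented in islets mainly by a small set of receptors and adaptors. Of the 51 members, 36 passed edgeR's filter on low counts: 8 of 18 ligands, 22 of 27 receptors and all 6 adaptors. Of the 15 others, 13 had at most 10 counts in every library. *Traf3*, *Traf6*, *Tnfrsf1a* and *Relt*, the highest 4 by counts summed over the libraries, held 46.9% of all counts on the family. In the FXR+/+ libraries alone *Tnfrsf21* had more counts than *Relt*.

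Levels of different genes were compared as CPM per kb of exon (exon lengths from GENCODE vM21). Among receptors the highest in FXR+/+ islets was *Tnfrsf1a* (TNFR1, the death domain receptor that mediates most effects of soluble TNF), at 18.2, 14.9 and 12.8 CPM per kb in female 1, male 1 and male 2. Next came *Ltbr*, the lymphotoxin-β receptor, at 8.66, 9.48 and 7.33 CPM per kb. It was followed by *Tnfrsf21* (death receptor 6), at 6.76, 7.53 and 8.18 CPM per kb. The 3 values of *Tnfrsf1a* were all above those of *Ltbr*, whereas *Ltbr* and *Tnfrsf21* overlapped. *Relt* was the fourth receptor in FXR+/+ islets at 7.43 ± 2.64 CPM per kb (SD, n = 3) and *Tnfrsf12a* (the TWEAK receptor) the fifth at 7.05 ± 0.62 CPM per kb, and both overlapped with *Tnfrsf21*. In FXR-/- islets *Relt* stood at 14.7, 17.9 and 16.3 CPM per kb, above every value of *Ltbr* and *Tnfrsf21* in those libraries and below the 19.4, 20.5 and 19.2 CPM per kb of *Tnfrsf1a*. *Tnfrsf12a*, at 5.65, 19.0 and 7.57 CPM per kb in FXR-/- female 1, male 1 and male 2, was above *Relt* in male 1 and below it in the 2 others.

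**Figure D1:**
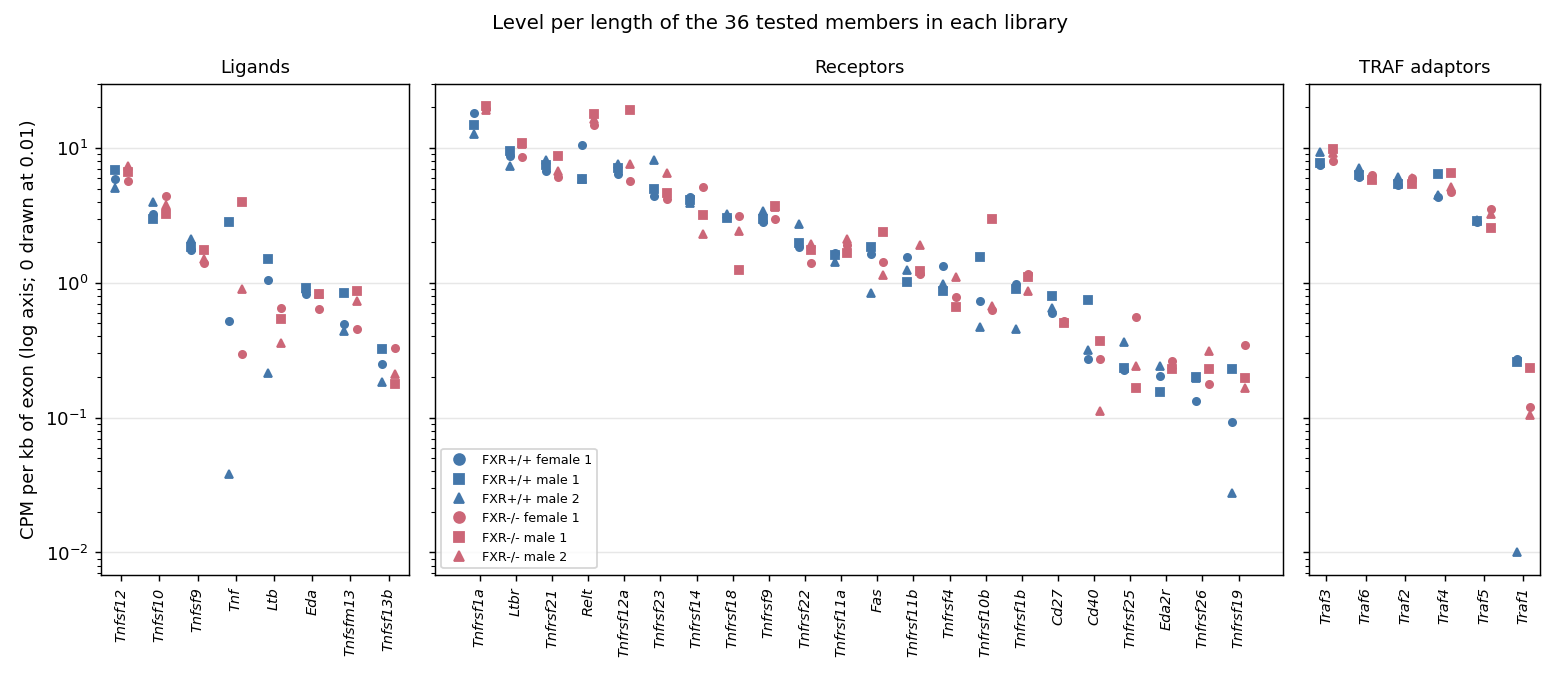
CPM per kb of exon (log axis) of the 36 members that passed the filter on low counts, in the 3 FXR+/+ (blue) and 3 FXR-/- (red) libraries, by role and ordered by the FXR+/+ mean. Blue and red points of most members lie among each other, while the 3 red points of *Relt* lie above its blue points.

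Among adaptors, *Traf3* (which restrains non-canonical NF-κB signalling) had 7.50, 7.69 and 9.29 CPM per kb in FXR+/+ female 1, male 1 and male 2. *Traf6* (the adaptor shared with interleukin-1 and Toll-like receptors) had 6.14, 6.27 and 7.09 CPM per kb in the same order. *Traf2* (the adaptor of TNFR1 and TNFR2) had 5.30, 5.40 and 6.15 CPM per kb. Neighbours in this order differed little: *Traf3* lay above all values of *Traf6*, and *Traf6* overlapped with *Traf2*. *Traf1*, an adaptor induced in lymphocytes, was the lowest of the 6 at 0.177 ± 0.153 CPM per kb, and in FXR+/+ male 2 it had 0 counts, below the floor of 3.

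Apart from *Tnfsf12*, ligands were lower in FXR+/+ islets than *Traf3*, *Traf6* and *Traf2*. *Tnfsf12* (TWEAK, the ligand of *Tnfrsf12a*) led with 5.88, 6.87 and 5.06 CPM per kb in FXR+/+ female 1, male 1 and male 2, and overlapped with *Traf6* and *Traf2*. *Tnfsf10* (TRAIL) had 3.25, 2.97 and 3.96 CPM per kb in the same order. *Tnfsf9* (4-1BB ligand) had 1.75, 1.84 and 2.11 CPM per kb. These 3 ligands did not overlap with each other. *Tnfsf12* overlaps in the genome with *Tnfsfm13*, a read-through gene that also spans *Tnfsf13*, so that the authors' counting may divide reads between them in a way not stated. *Fasl* and *Cd40lg*, the ligands of *Fas* and *Cd40*, had at most 4 counts in any library, and *Cd70*, the ligand of *Cd27*, had 1 count in all.

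The question put to these libraries was which genes differ in islets when FXR is absent. No member was called at an adjusted p under 0.05 by edgeR with terms for sex and genotype (0 of 36 members, and 0%, or 0 of 14619, of all genes tested). At an unadjusted p under 0.05 there were 2 members, *Relt* and *Tnfrsf1a*, both higher in FXR-/- islets. That is 2 of 36 members, where 10.3% of all genes tested passed the same limit (6.18% higher and 4.15% lower). The count was 4 with the replicate number as a block, where *Tnfrsf1b* and *Tnfrsf22* joined them, against 16.1% of all genes. It was 5 without FXR+/+ male 1 (14.7% of all genes) and 4 without FXR+/+ male 2 (6.46% of all genes). A fit that also had a block for the replicate number called 0 members, against 0.157% of all genes. DESeq2 called 1 member, *Relt*, against 1.37% of the genes for which it gave an adjusted p.

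Fold changes of the family went both ways, from -0.78 for *Ltb* to 1.19 for *Relt* in log2. Their size was at least 1 in 2 of 36 members, *Relt* and *Tnfrsf19*, and in 199 of the 14619 genes tested. Of the 36 tested members, 22 had a positive and 14 a negative log2 fold change, with a median of 0.14, where 51.6% of all genes tested were positive with a median of 0.0084. Without FXR+/+ male 2, 19 of 37 members were positive with a median of 0.046, and without FXR-/- male 1, 20 of 37 with 0.060. Without FXR+/+ male 1, 26 of 37 were positive with a median of 0.12. Scaling by library size alone put the median over all genes at -0.087 and that of the members at 0.046. Of the genes with an unadjusted p under 0.05, 59.8% were higher in FXR-/- with TMM and 29.0% with library size alone. *Relt* and *Tnfrsf1a* were higher under both. By role, 4 of 8 ligands, 14 of 22 receptors and 4 of 6 adaptors were positive, with medians of 0.040, 0.18 and 0.082.

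**Figure D2:**
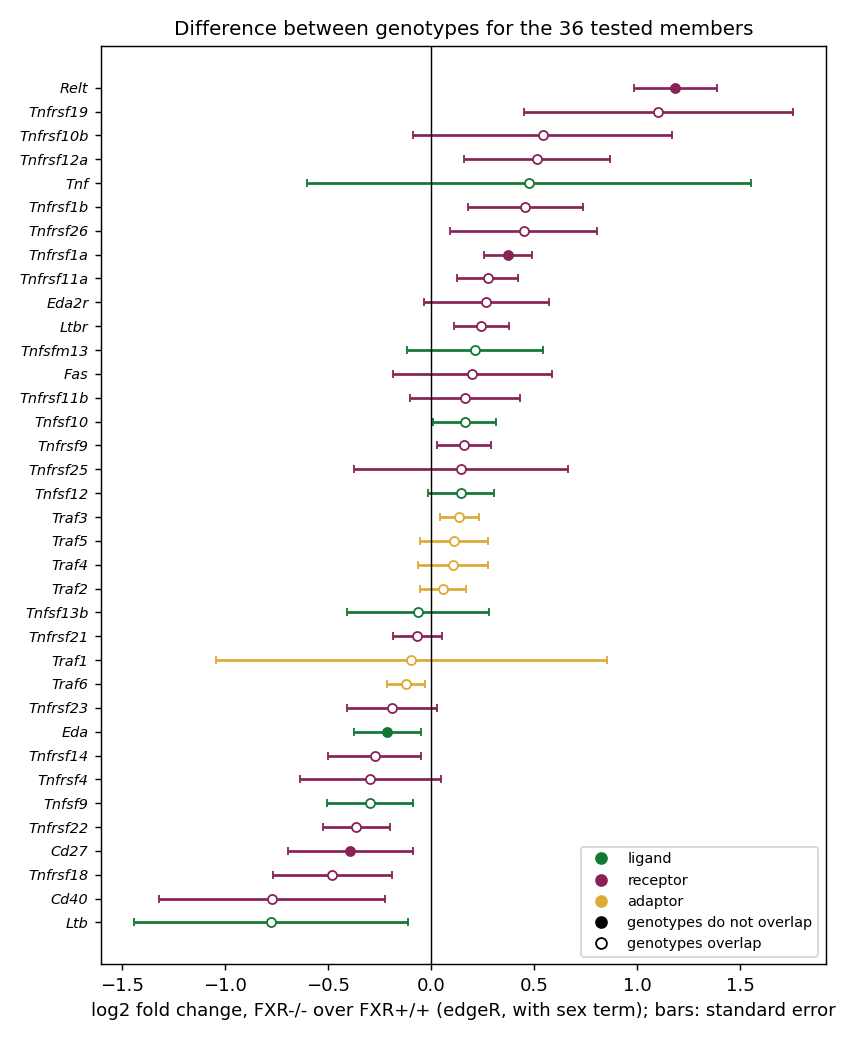
Log2 fold change of FXR-/- over FXR+/+ (x axis, edgeR with a sex term) with its standard error for the 36 tested members, coloured by role. Filled points mark the 4 members whose 3 values in one genotype are all above or all below the 3 of the other; *Relt* lies farthest to the right at 1.19, and *Tnfrsf19*, next to it at 1.10, has a standard error of 0.65.

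*Relt* (NCBI gene 320100) was the member with the lowest p. It had 701, 340 and 534 counts in FXR+/+ female 1, male 1 and male 2 and 1035, 971 and 1107 counts in the FXR-/- libraries in the same order. In CPM this was 29.9, 16.9 and 16.9 against 41.9, 51.1 and 46.6. The lowest FXR-/- library, female 1, was above the highest FXR+/+ library, which was also female 1. The log2 fold change was 1.19 ± 0.20 (SE, n = 3 per genotype), with an unadjusted p of 0.000505 and an adjusted p of 0.225 by edgeR, 0.0651 with the replicate block and 1.36e-05 by DESeq2. An exact permutation test of the 3 against 3 libraries, two-sided, gave p = 0.1, the smallest that this design allows. *Relt* was chosen from earlier results of these same data, so these p-values describe it and are not an independent test.

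The size of the difference in *Relt* was not the same in the 3 pairs. FXR-/- was 1.403 times FXR+/+ in female 1, 3.031 times in male 1 and 2.763 times in male 2. The FXR+/+ female library held more *Relt* than either FXR+/+ male library, and the FXR-/- female library less than either FXR-/- male library. The interaction of genotype and sex, as the log2 effect in males minus that in females, was 1.05 with an unadjusted p of 0.00143 and an adjusted p of 1.00 by edgeR. It was the 1 member of 36 with an unadjusted interaction p under 0.05, where 1.48% of all genes passed that limit. With 1 female library per genotype, the sex and the individual library cannot be told apart.

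**Figure D3:**
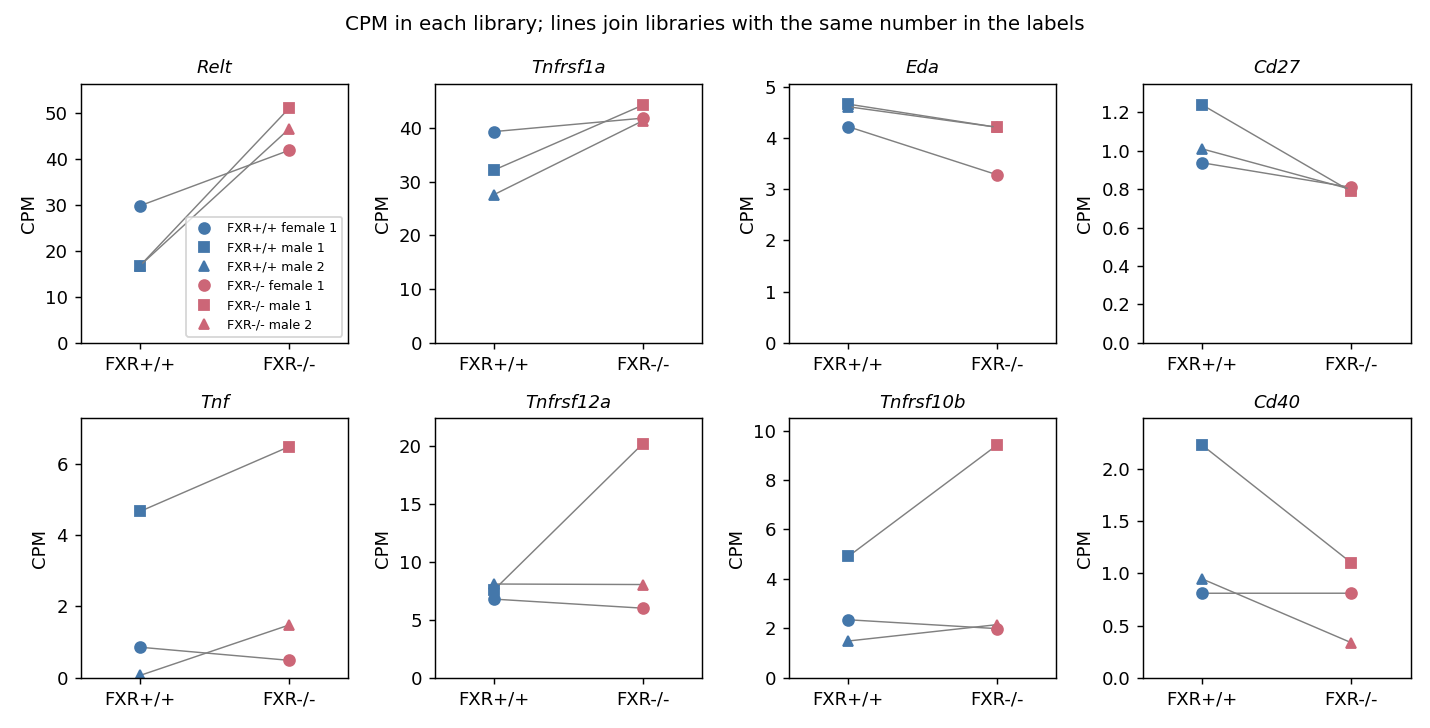
CPM (y axis, from 0) of 8 members in each FXR+/+ and FXR-/- library, with lines between libraries of the same number. *Relt*, *Tnfrsf1a*, *Eda* and *Cd27* do not overlap between genotypes; in the lower row *Tnf*, *Tnfrsf12a* and *Tnfrsf10b* are highest in FXR-/- male 1, and *Cd40* in FXR+/+ male 1.

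*Relt* lies on the minus strand of chromosome 7 (GRCm38), from 100845847 to 100863489 in RefSeq, and the deposited exon counts list 11 exons for it. Its terminal exon, chr7:100845848-100847277, is 1430 bases long and lies mostly in the 3′ UTR. This exon had 299, 128 and 212 counts in FXR+/+ female 1, male 1 and male 2 and 453, 390 and 494 counts in the FXR-/- libraries in the same order. It held 84.2% to 95.8% of the counts on *Relt* exons in each library. Counts on all *Relt* exons came to 43.8% to 48.2% of its gene counts, and the exon of the other gene counts is not given. The log2 fold change of the terminal exon was 1.28 ± 0.21 (SE, n = 3 per genotype), with an adjusted p of 0.153 over all exons by edgeR and 0.00912 with the replicate block. Of the 41 exons of members that were tested, none had an adjusted p under 0.05 by edgeR, where 0.0185% of all exons tested did, and 3 had an unadjusted p under 0.05, against 7.79% of all exons. The 2 others were the terminal exon of *Tnfrsf1a*, with a log2 fold change of 0.39 and an adjusted p of 0.632, and exon 2 of *Tnfrsf18*, with -0.94 and an adjusted p of 0.632.

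The 10 other exons of *Relt*, with 1387 bases in all, drew 25, 24 and 22 reads in the FXR+/+ and 20, 63 and 40 reads in the FXR-/- female 1, male 1 and male 2. On these exons the female pair did not differ in the direction of the terminal exon, and the genotypes overlapped (exact permutation test, two-sided, p = 0.3). In FXR-/- male 1, 31 of the 63 counts lay on the exon that is 6th from the 5′ end. The exon table counts few reads on short exons in general: exons under 300 bases hold 28.8% of the exon bases of the table and 6.61% of its counts. The upstream exons thus carry too few counts to show whether the whole transcript differed as the terminal exon did. The adjacent genes *Fam168a* and *Arhgef17* had log2 fold changes of 0.03 ± 0.08 and 0.11 ± 0.10 (SE), with adjusted p of 0.896 and 0.673 by edgeR.

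**Figure D4:**
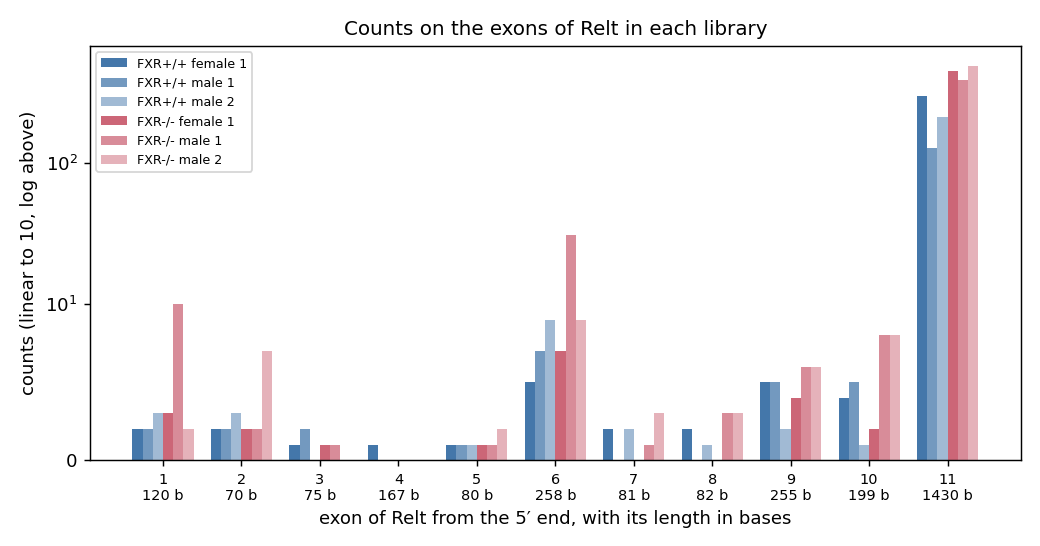
Counts (y axis, linear to 10 and log above) on each exon of *Relt*, numbered from the 5′ end with its length in bases, in each library. The 1430-base terminal exon holds at least 84.2% of the counts on these exons in each library and separates the genotypes, while the 10 other exons do not.

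The 174 bases before the outermost *Relt* start in RefSeq are shown because this is the gene on which the comparison turns. They lie at chr7:100863490-100863663 on the minus strand (RefSeq, GRCm38.p6). RefSeq holds more than 1 start for *Relt*: the gene reaches to 100863489, while the promoter window used below starts from 100863413, the 5′ end of the first exon of the exon table, and the 76 bases between these starts are not shown.

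Relt: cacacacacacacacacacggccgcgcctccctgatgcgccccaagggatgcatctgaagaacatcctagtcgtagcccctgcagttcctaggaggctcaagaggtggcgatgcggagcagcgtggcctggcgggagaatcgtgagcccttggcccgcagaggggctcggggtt

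This stretch has a GC content of 64.4% and holds none of the 4 motifs that follow. Both strands of the promoter windows (250 bases before to 50 after the start) were searched for the inverted repeat AGGTCANTGACCT, the form of element to which FXR binds with RXR. It was in none of the 42 members with a promoter sequence and in 0.0111% of 27025 genes. A single copy of the repeat, AGGTCA, was in 9.52% of members and 18.1% of all genes, and was not in the window of *Relt*. GGGCGG, the GC box bound by Sp1-type factors, was in 59.5% of members and 38.2% of all genes. The letters GGGANNTTCC, a κB site of NF-κB, were in 1 member, *Ltb*, and in 1.63% of all genes. The *Ltb* site is shown with 10 bases on either side, with the match in capitals, on the plus strand at chr17:35194410-35194439. The κB letters read on the minus strand, so the capitals are their reverse complement.

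Ltb: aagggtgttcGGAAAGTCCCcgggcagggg

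*Tnfrsf1a* (chromosome 6, plus strand) stood at 39.3, 32.2 and 27.6 CPM in FXR+/+ female 1, male 1 and male 2 and at 41.8, 44.2 and 41.3 CPM in the FXR-/- libraries. The genotypes did not overlap, and FXR-/- was 1.064, 1.375 and 1.498 times FXR+/+ in the 3 pairs. The log2 fold change was 0.38 ± 0.12 (SE, n = 3 per genotype), with an unadjusted p of 0.0140 and an adjusted p of 0.430 by edgeR, 0.185 with the replicate block and 0.243 by DESeq2. *Tnfrsf1b*, the gene for TNFR2, which lacks a death domain, had 3.75, 3.42 and 1.74 CPM in FXR+/+ and 4.46, 4.21 and 3.32 CPM in FXR-/- libraries, and the genotypes overlapped. The log2 fold change was 0.46 ± 0.28 (SE), with an adjusted p of 0.555 by edgeR, and it was 0.19 without FXR+/+ male 2 and 0.71 without FXR+/+ male 1.

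Not overlapping between genotypes were 4 of 36 members (2 higher and 2 lower in FXR-/-), where 15.4% of all genes tested did not overlap (8.02% higher and 7.37% lower). The 2 lower members were a ligand and a receptor. *Eda* (ectodysplasin A, a ligand of skin appendage development, on chromosome X) had 4.22, 4.66 and 4.61 CPM in FXR+/+ and 3.28, 4.21 and 4.21 CPM in FXR-/- female 1, male 1 and male 2. The 2 genotypes were separated by a margin that is small beside the spread, with a log2 fold change of -0.21 ± 0.16 (SE) and an adjusted p of 0.616 by edgeR. *Cd27*, a costimulatory receptor of lymphocytes, had 0.938, 1.24 and 1.01 CPM against 0.810, 0.789 and 0.799 CPM. With 15 to 32 counts per library, its log2 fold change was -0.39 ± 0.30 (SE), with an adjusted p of 0.623 by edgeR.

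The other tested receptors with a death domain overlapped between genotypes. *Fas*, which triggers apoptosis on binding Fas ligand and is induced by cytokines in β-cells, had 2.94, 3.32 and 1.52 CPM in FXR+/+ and 2.55, 4.26 and 2.06 CPM in FXR-/- female 1, male 1 and male 2. Its log2 fold change was 0.20 ± 0.39 (SE), with an adjusted p of 0.848 by edgeR. *Tnfrsf21* had 24.5, 27.3 and 29.7 CPM against 22.2, 31.6 and 24.3 CPM, with a log2 fold change of -0.067 ± 0.118 (SE). *Tnfrsf10b*, the mouse TRAIL receptor with a death domain, was highest in male 1 of both genotypes, with 2.34, 4.91 and 1.48 CPM against 1.99, 9.41 and 2.15 CPM. *Tnfsf10*, its ligand, had 17.1, 15.7 and 20.9 CPM against 23.3, 17.2 and 20.03 CPM, and its log2 fold change was 0.16 ± 0.15 (SE), or 0.024 without FXR+/+ female 1 and 0.33 without FXR+/+ male 2.

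The ligand *Tnf* varied widely between libraries. It had 0.852, 4.66 and 0.0631 CPM in FXR+/+ and 0.486, 6.47 and 1.47 CPM in FXR-/- female 1, male 1 and male 2. Male 1 was the highest of the 3 in both genotypes, and the lowest library, FXR+/+ male 2, had 2 counts, under the floor of 3. The log2 fold change of *Tnf* was 0.48 ± 1.08 (SE), with an adjusted p of 0.875 by edgeR. It was -0.66 without FXR-/- male 1 and -0.38 without FXR+/+ male 2, so that no direction is given.

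*Tnfrsf12a*, the TWEAK receptor, which rises in injured tissue, also had its highest value in male 1 of FXR-/-. It had 6.78, 7.58 and 8.08 CPM in FXR+/+ and 5.995, 20.2 and 8.04 CPM in FXR-/- libraries. In log2 fold change it stood at 0.52 ± 0.35 (SE), with an adjusted p of 0.587 by edgeR, and it was -0.057 without that library. Of the 36 tested members, 12 had their highest CPM in FXR-/- male 1 and 12 their lowest in FXR+/+ male 2. *Tnfsf12*, the ligand, had 8.44, 9.86 and 7.26 CPM against 8.18, 9.52 and 10.6 CPM, and the genotypes overlapped.

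Decoy and soluble receptors did not separate the genotypes. *Tnfrsf11b* (osteoprotegerin, a soluble receptor for RANK ligand and TRAIL) had 4.39, 2.87 and 3.54 CPM in FXR+/+ and 3.28, 3.47 and 5.34 CPM in FXR-/- female 1, male 1 and male 2, with a log2 fold change of 0.17 ± 0.27 (SE). *Tnfrsf22*, *Tnfrsf23* and *Tnfrsf26* lie next to each other on chromosome 7, and *Tnfrsf22* and *Tnfrsf23* encode decoy receptors of TRAIL. Their log2 fold changes were -0.36, -0.19 and 0.45. These near copies may share reads, so the division between them is uncertain.

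*Cd40*, *Ltb* and *Tnfrsf13c*, which have roles in lymphocytes, were low and uneven. *Cd40*, the receptor by which T cells activate B cells, had 0.810, 2.23 and 0.947 CPM in FXR+/+ and 0.810, 1.10 and 0.337 CPM in FXR-/- female 1, male 1 and male 2. *Ltb*, a ligand of lymphocytes, had 1.24, 1.78 and 0.252 CPM against 0.770, 0.631 and 0.421 CPM. *Tnfrsf13c*, the BAFF receptor of B cells, did not pass the filter and had 53 counts in FXR+/+ male 1 against at most 8 in any other library. Male 1 was thus the highest FXR+/+ library for all 3 genes. Other members with roles in lymphocytes were higher and more even across the FXR+/+ libraries, with 7.03, 7.38 and 8.52 CPM of *Tnfrsf9*, 5.58, 5.35 and 5.11 CPM of *Tnfrsf14* and 3.88, 3.82 and 4.07 CPM of *Tnfrsf18*. The B cell marker *Ms4a1* was also highest in that library, with 97 counts against at most 10 elsewhere. The sum of 5 B cell markers was 21.1 to 45.1 CPM in FXR+/+ and 15.7 to 26.1 CPM in FXR-/- libraries. Most of it was *Cd79a*, with 25.4, 29.3 and 19.9 CPM in FXR+/+ and 23.3, 13.9 and 13.9 CPM in FXR-/- female 1, male 1 and male 2. *Cd79a* overlapped between genotypes, with a log2 fold change of -0.58 ± 0.19 (SE) and an adjusted p of 0.430 by edgeR. *Ms4a1* and *Pax5* had 0 counts in FXR+/+ female 1, where *Cd79a* had 595, so *Cd79a* and the sum did not follow these 2 markers. *Cd79b* had 0.639, 3.62 and 0.252 CPM in FXR+/+ and 0.567, 0.579 and 0.673 CPM in FXR-/- libraries. *Cd22* had 1.24, 5.85 and 0.884 CPM against 1.90, 1.95 and 0.968 CPM. Both were highest in FXR+/+ male 1 and overlapped between genotypes. The sum of the 6 counted T cell markers was 0.757 to 4.99 CPM against 1.21 to 2.67 CPM, with *Cd3d* at 0 counts in FXR+/+ male 2. The part of B and T cells in these values was not tested, and in such bulk RNA fewer cells of a type and less RNA per cell cannot be told apart.

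Markers of several cell types were higher in FXR-/- libraries, as *Relt* and *Tnfrsf1a* were, and for endothelial cells and macrophages the summed levels did not overlap between genotypes. The sum of 5 endothelial markers was 427.5, 493.2 and 418.6 CPM in FXR+/+ and 514.6, 833.7 and 557.5 CPM in FXR-/- female 1, male 1 and male 2, with 5 of 5 markers at a positive log2 fold change and 4 at an unadjusted p under 0.05. The sum of 8 macrophage markers was 112.9, 131.4 and 104.3 CPM against 138.9, 160.0 and 136.2 CPM, with 7 of 8 positive and 4 at an unadjusted p under 0.05. Of all genes tested, 10.3% passed that limit, and in 15.4% the genotypes did not overlap. Most of the macrophage sum was *C1qa*, with 61.7, 77.2 and 66.6 CPM against 76.5, 90.2 and 79.4 CPM, where the genotypes overlapped. Of the other macrophage markers, *C1qb*, *C1qc* and *Csf1r* did not overlap and the rest did. No marker on either list was at 0 counts in any library. The sum of 6 stellate markers was 53.1, 146.4 and 42.0 CPM against 115.8, 141.4 and 129.1 CPM, with 6 of 6 positive, a median log2 fold change of 0.82 and none at an unadjusted p under 0.05. Of 4 tested ductal markers, *Sox9* (0.93) and *Krt19* (0.59) had an unadjusted p under 0.05. The most abundant ductal marker, *Krt7* (-0.21), went the other way without overlap, with 226.4, 209.9 and 200.5 CPM against 166.9, 196.8 and 189.3 CPM. The ductal sum, most of which was *Krt7*, was 214.3 to 249.7 CPM against 195.0 to 237.6 CPM. Of 6 β-cell markers, *Mafa* (0.57, without overlap) and *Nkx6-1* (0.38) had an unadjusted p under 0.05. The β-cell sum was 176800 to 211400 CPM against 172600 to 254600 CPM. The part of these cell types in the difference in *Relt* and *Tnfrsf1a* was not tested.

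The 15 members that were not tested were 10 ligands and 5 receptors. Apart from *Tnfrsf13c*, none of them had over 14 counts in any library. *Edar*, the receptor of ectodysplasin A, drew 0, 0 and 1 reads in the FXR+/+ and 4, 2 and 3 reads in the FXR-/- female 1, male 1 and male 2. Its values do not overlap, but all of them are within 4 counts of 0, and no fold is given because neither genotype averaged over 3 counts. *Tnfrsf17*, the BCMA receptor of plasma cells, had 2 counts in all, both in FXR-/- male 2.

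The proteins that act below these receptors were followed in a list of 43 genes, all of which were tested. By edgeR none was called at an adjusted p under 0.05, none with the replicate block and none by DESeq2, and 5 of 43 had an unadjusted p under 0.05, where 10.3% of all genes tested did. The median log2 fold change was -0.015, and 21 of 43 were positive. In 4 of 43 the genotypes did not overlap, against 15.4% of all genes tested. Of these, 2 were higher in FXR-/- (*Tnip1* and *Rell2*) and 2 were lower. *Tnip1*, a ubiquitin-binding inhibitor of NF-κB signalling, had 19.7, 21.7 and 19.7 CPM in FXR+/+ and 27.3, 34.0 and 23.7 CPM in FXR-/- female 1, male 1 and male 2. Its log2 fold change was 0.48 ± 0.14 (SE), with an adjusted p of 0.430 by edgeR.

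The 4 others with an unadjusted p under 0.05 were lower in FXR-/- islets, by small amounts. They were *Birc2* (cIAP1, a ubiquitin ligase of the TNFR1 complex) at -0.24, *Xiap* (an inhibitor of caspases) at -0.25, *Map3k7* (the kinase TAK1) at -0.25 and *Ikbkg* (NEMO, the regulatory subunit of the IκB kinase) at -0.21 in log2 fold change. Their adjusted p ran from 0.452 to 0.464 by edgeR. *Birc2* had 58.8, 51.3 and 62.2 CPM in FXR+/+ and 49.8, 47.2 and 49.1 CPM in FXR-/- libraries, without overlap. *Ikbkg* had 37.2, 36.9 and 39.1 CPM against 33.8, 31.5 and 32.5 CPM, also without overlap. The 2 homologues of RELT, *Rell1* and *Rell2*, had log2 fold changes of 0.02 and 0.31, with adjusted p of 0.957 and 0.549 by edgeR. *Oxsr1* and *Stk39*, kinases that bind RELT family members, had log2 fold changes of -0.020 and 0.073.

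Genes that NF-κB is commonly taken to induce formed a list of 25, of which 24 were in the table and 20 were tested. None was called at an adjusted p under 0.05 by edgeR or by DESeq2, and 3 of 20 had an unadjusted p under 0.05, against 10.3% of all genes tested. Of the 20, 15 had a positive log2 fold change and the median was 0.29, where 51.6% of all genes were positive with a median of 0.0084. In all 3 pairs 4 of 20 were higher and 1 was lower in FXR-/-, against 2978 and 2764 of the 14619 genes tested. Most of the 15 were highest in FXR-/- male 1, while *Ccl5*, *Nos2* and *Csf1* were not. *Gadd45b*, for example, had 25.6, 32.6 and 17.4 CPM in FXR+/+ and 21.2, 86.5 and 20.5 CPM in FXR-/- female 1, male 1 and male 2. In all 20 the genotypes overlapped, where 15.4% of all genes tested did not overlap. *Cxcl10*, a chemokine induced by interferon and TNF, had 0.554, 1.98 and 0.379 CPM in FXR+/+ and 2.47, 7.10 and 1.26 CPM in FXR-/- female 1, male 1 and male 2. It was higher in FXR-/- in each of the 3 pairs although the genotypes overlapped, and its log2 fold change was 1.97 ± 0.75 (SE), with an adjusted p of 0.458 by edgeR and 0.0441 with the replicate block.

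*Bcl3*, an atypical IκB protein, had 7.46, 8.38 and 6.22 CPM in FXR+/+ and 9.52, 14.6 and 8.29 CPM in FXR-/- libraries, with a log2 fold change of 0.55 ± 0.23 (SE) and an adjusted p of 0.480 by edgeR. *Sod2*, the mitochondrial superoxide dismutase, went the other way, with 68.0, 71.2 and 83.7 CPM against 57.3, 62.7 and 68.6 CPM. Its log2 fold change was -0.24 ± 0.09 (SE), with an adjusted p of 0.457 by edgeR. Neither gene was free of overlap between genotypes.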

How the data were processed

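Islet RNA-seq libraries of both genotypes were re-analysed from the deposited counts. Poly(A) RNA was fragmented and primed with random hexamers, by a protocol whose description mentions no strand marking, so a gene and an antisense partner cannot be told apart. Per the labels, HISAT was among the submitters' tools; its version and the counting rule are not given in the sources used here. The authors deposited whole-number counts per gene and per exon (GRCm38 positions), without normalization. They also deposited their own comparison of the genotypes (means, log2 fold changes, p-values and q-values), which was not used here.

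The test of the gene counts was the quasi-likelihood test of edgeR 4.0.16 (glmQLFit and glmQLFTest) in R 4.3.3, on a design of sex plus genotype. Low genes were removed with filterByExpr by genotype, at a minimum count of 10 and a minimum total of 15, and libraries were scaled by TMM. Of 19342 genes, 14619 were tested, with 3 residual and a median of 4.43 prior degrees of freedom. All 6 libraries entered the fit, and p-values were adjusted over all genes tested by the method of Benjamini and Hochberg. The 26998 exons that passed the filter were tested in the same way. The F statistic gave the standard error of each log2 fold change. DESeq2 1.42.0 and the other fits were alternatives. Permutation tests used log2 CPM over all relabellings of 3 against 3 libraries. The procedure was tested on simulated counts.

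Same-numbered libraries of the 2 genotypes deviated together from the means of their genotypes (r across genes 0.361 for female 1, 0.367 for male 1 and 0.323 for male 2, against at most 0.0200 for other pairs), so a fit blocked on that number is given beside the results whose call it changes. The numbers come from the labels, which do not say what they mark. No pair of libraries was as alike as sampling noise allows. Whether libraries come from separate mice is not stated, so p-values measure the spread between these libraries. Floors cover counting error only.

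Positions came from RefSeq (GRCm38.p6), which held all 51 members, and promoter windows from RefSeq, which held 42. Named genes were *Relt*, members with an unadjusted p under 0.05 or without overlap of the genotypes, the 3 highest per length in each role, a few known in islets, and list genes with an unadjusted p under 0.05. *Ltb*, *Tnfrsf10b*, *Tnfrsf13c*, *Edar* and other genes outside this rule were named after their values were seen. The members and lists were chosen with earlier results of these data known. A further B cell marker is not reported here.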

Additional observations from a re-analysis of the deposited data

How the results depend on the processing

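With 3 libraries a genotype, 1 of them female, the edgeR fit called no gene, so its adjusted p separate no member from the rest. *Relt* stayed higher in FXR-/- under all 17 alternatives, with a log2 fold change of 1.06 to 1.53 and an adjusted p of 1.36e-05 to 0.650, the highest without FXR-/- male 2. It passed the threshold by DESeq2 (1.18), which called 1 member. *Nr1h4* passed with the replicate block (-1.08) and by DESeq2 (-1.08), ran from -1.23 to -0.94 with a library left out, and was -1.78 with exon counts summed per gene. The block put the members with an unadjusted p under 0.05 at 4 (*Relt*, *Tnfrsf1a*, *Tnfrsf1b*, *Tnfrsf22*), NF-κB targets called at 1 (*Cxcl10*) and the terminal exon of *Relt* past the threshold (1.28). It changed no other call. Over all genes the calls were 0 by edgeR, 23 with the block, 177 by DESeq2 and 4 from exon counts summed per gene. With a library left out, members with an unadjusted p under 0.05 ranged from 2 to 5, with 5 without FXR+/+ male 1 and 4 without FXR+/+ male 2, and *Relt* and *Tnfrsf1a* were among them each time.

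Of the 35 other tested members, 20 kept their direction under every alternative that tested them and 15 did not. In males alone *Traf1* was at 0.57, *Traf2* at -0.0073 and *Tnfrsf25* at -0.56, and with library size alone *Traf2* was at -0.038. With a library left out, log2 fold changes ran from -0.87 to 0.62 for *Traf1*, -0.0071 to 0.13 for *Traf2*, -0.56 to 0.67 for *Tnfrsf25*, -1.30 to 0.046 for *Ltb*, -0.34 to 0.22 for *Tnfsf13b*, -0.20 to 0.48 for *Fas*, -0.66 to 2.27 for *Tnf*, -0.00079 to 0.24 for *Tnfsf12*, -0.033 to 0.26 for *Traf4*, -0.097 to 0.46 for *Tnfsfm13*, -0.36 to 0.063 for *Tnfrsf23*, -0.41 to 1.01 for *Tnfrsf10b*, -0.057 to 0.84 for *Tnfrsf12a*, -0.12 to 0.46 for *Tnfrsf11b* and -0.20 to 0.024 for *Tnfrsf21*. The cause of these changes was not tested.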

Other observations

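*Nfkbia* and *Tnfaip3*, feedback inhibitors of NF-κB on the signalling list that were named after their values were seen, were highest in male 1 of both genotypes, as were *Tnf* and *Tnfrsf10b*. *Nfkbia* (IκBα) had 38.9, 54.5 and 33.5 CPM in FXR+/+ and 39.0, 152.8 and 42.7 CPM in FXR-/- female 1, male 1 and male 2. *Tnfaip3* (A20, a ubiquitin-editing enzyme) had 10.9, 21.3 and 4.67 CPM against 8.02, 43.0 and 11.7 CPM. The male 1 libraries also had the highest sum of the 8 acinar markers in their genotype, 101600 and 115000 CPM, against 32810 to 67990 CPM in the other libraries. The genotypes overlapped for both genes, with log2 fold changes of 0.78 ± 0.47 and 0.60 ± 0.67 (SE) and adjusted p of 0.553 and 0.735 by edgeR. The part of acinar RNA or of the replicate number in these values was not tested.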
